A study of Rattus norvegicus with 15 samples.

Results

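The miRNA course of liver regeneration under the control diet was followed on the 8 arrays of pair-fed (CHO) rats, out of 15 arrays in the series. These were chosen by their labels alone: 4 pools of liver RNA taken at partial hepatectomy (LLM) and the same 4 pools taken 1, 6, 12 or 24 h after partial hepatectomy (PHx). PHx removes part of the liver, and the remnant grows back. The other 7 arrays hold liver of rats fed ethanol (EtOH) for a long period, whose controls are the CHO rats fed a carbohydrate diet in matched amounts. All tissue was frozen in place with clamps cooled in liquid nitrogen, and total RNA was labelled with Cy3 and hybridised to Agilent rat miRNA arrays. Each CHO array holds RNA pooled from 4 animals, and in all 4 pools the LLM and PHx arrays come from the same animals, per the labels' animal identifiers. The 1 h and 6 h CHO pools share 1 animal. There is 1 pool at each time after PHx, no sham operation was among the arrays used here, and the labels name no strain, sex or age.

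MiRNAs are short RNAs that guide Argonaute proteins to messenger RNAs, mainly through pairing of the seed, bases 2 to 8 from the miRNA's 5′ end. Members of a family that share a seed can bind many of the same targets. After PHx the quiescent hepatocytes enter the cell cycle together, passing from an early priming phase into G1 and, in the rat, into DNA synthesis about a day after surgery. MiR-21 is raised in many proliferating tissues, and the miR-17-92 polycistron and its paralogues are transcribed under MYC and E2F factors.

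The mature sequences below are those of the miRNAs on which the time course turns, from RefSeq (build GRCr8), with the seed in capitals. Of the 134 miRNAs tested, 93 were matched to a RefSeq sequence, 18 of them by the exact name and the others through the arm that the array's older name denotes. The first set shares the seed of miR-17 and holds 3 of the 7 rises called at 24 h.
miR-17: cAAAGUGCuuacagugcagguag
miR-20a: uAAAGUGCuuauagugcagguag
miR-93: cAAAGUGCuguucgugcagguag
miR-106b: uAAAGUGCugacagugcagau

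The next set holds the other 4 miRNAs called at 24 h, with miR-221 and miR-223, which lay higher after PHx in all 4 pairs, and none of these seeds is shared within it.
miR-21: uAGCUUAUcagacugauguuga
miR-221: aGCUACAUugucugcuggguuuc
miR-223: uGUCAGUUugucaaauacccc
miR-345-5p: uGCUGACCccuaguccagugc
miR-361: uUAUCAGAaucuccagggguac
miR-425: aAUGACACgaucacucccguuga

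The third set, which also shares a seed, had the highest early differences.
miR-196a: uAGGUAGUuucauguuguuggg
miR-196b: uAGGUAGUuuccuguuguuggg
miR-196c: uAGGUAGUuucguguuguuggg

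The last set was high in the 12 h pool after PHx.
miR-125a-3p: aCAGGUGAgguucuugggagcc
miR-188: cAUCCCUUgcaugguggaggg
miR-672: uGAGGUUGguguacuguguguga
miR-30c-1*: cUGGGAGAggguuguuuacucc

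In GRCr8, miR-17 (chr15:98587861-98587883, plus strand, 1 of its 2 loci) and miR-20a (chr15:98588318-98588340, plus strand) lie in the same polycistron. MiR-93 (chr12:22156894-22156916) and miR-106b (chr12:22157103-22157123) lie together on the minus strand. MiR-21 lies at chr10:71902653-71902674 on the minus strand, miR-223 at chrX:65151450-65151470 and miR-221 at chrX:6023246-6023268, both on the plus strand. MiR-196a, miR-196b and miR-196c have separate loci (chr7:135988900-135988921, chr4:82661149-82661170 and chr10:81727561-81727582) and differ from each other at 1 base of 22. MiR-17 and miR-20a differ at 2 of 23 bases, and each differs from miR-93 at 4. Near-identical miRNAs may bind each other's probes, so their values are not independent.

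The CHO arrays detected between 116 and 131 of 350 miRNAs, and the coefficient of variation between spots of a probe was 7.77% to 8.63%. Signal is scanner intensity scaled to each array's 75th percentile, with a floor of 9.61 below which values have no order. Before scaling, that percentile was lowest on the 24 h PHx array (343.9) and highest on the 24 h LLM array (515.5). The 12 h PHx array stood apart: across miRNAs, its closest correlation with any other array was 0.970. Among the EtOH arrays, which enter the spread of the fits at each time and the comparison of diets, the LLM array of the 12 h pool stood apart, with a variation between spots of 34.0%, a 75th percentile of 236.5 and 108 miRNAs detected. The 1 h and 6 h pools were hybridised on 1 slide and the 12 h and 24 h pools on another, so each pair lies within a slide, but early and late times also differ by slide. MiR-122, the defining hepatocyte miRNA, had signals of 33552 to 40386 in the LLM arrays and 34300.2 to 39080 in the PHx arrays, and all 4 muscle miRNAs looked for (miR-1, miR-133a, miR-133b and miR-206) were not well above background on any of the 8 arrays.

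What changed at each time was asked by setting the PHx array of that time against the mean of the 4 LLM arrays (limma, Benjamini-Hochberg adjusted p under 0.05, called a change). Beside it stands the paired difference, the PHx array minus the LLM array of the same animals, both on the log2 scale. Most rises came at the later times: 1 miRNA of 134 was called at 1 h (0.746%), 1 at 6 h (0.746%), 9 at 12 h (6.72%) and 7 at 24 h (5.22%). All 18 calls were rises. No fall was called, although at an unadjusted p under 0.05 there were 2 falls at 1 h, 3 at 6 h, 2 at 12 h and 9 at 24 h, beside 4, 14, 16 and 19 rises. Quantile normalization gave 13 called falls at 12 h and 3 at 24 h, and the authors' deposited value table gave 11 and 6, each beside 6 rises at 12 h and 2 at 24 h. With 1 pool per time, the fit takes the spread of the LLM pools for that of the lone PHx pool, and p-values measure the spread between pools.

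**Figure D1:**
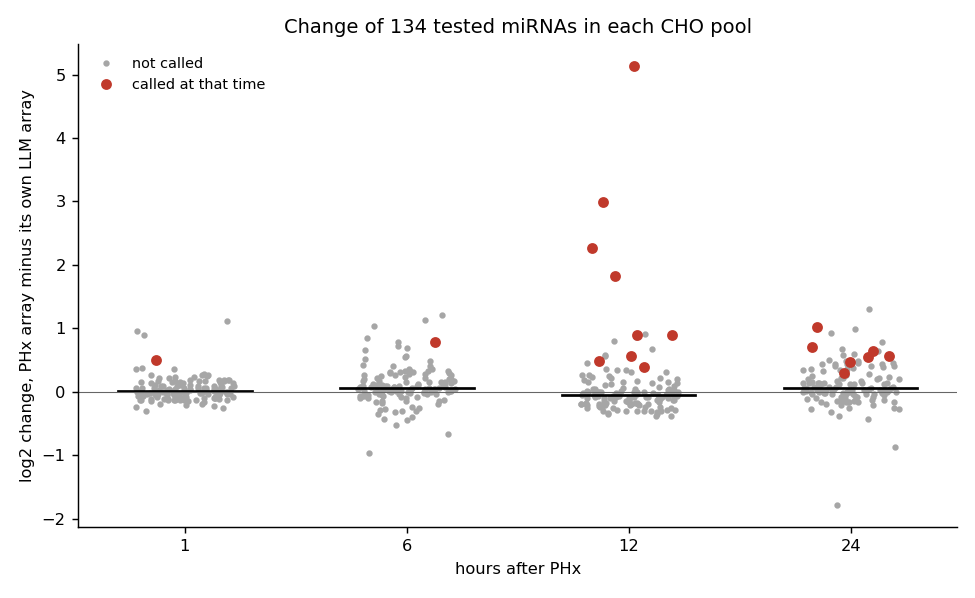
Log2 difference between each PHx array and the LLM array of the same pool (y axis) for the 134 tested miRNAs at 1, 6, 12 and 24 h after PHx (x axis, evenly spaced). Each point is 1 miRNA, red points were called at that time against the 4 LLM arrays, and the black bar is the median, which lay between -0.06 and 0.06; 3 miRNAs moved by more than 0.5 at 1 h and 16 at 24 h.

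At 1 h the liver's miRNAs had moved little. The standard deviation of the paired difference over the 134 miRNAs was 0.20 on the log2 scale, against 0.31 at 6 h, 0.63 at 12 h and 0.35 at 24 h. The interquartile ranges were 0.20, 0.26, 0.34 and 0.33, and 3, 15, 13 and 16 miRNAs moved by more than 0.5. The high value at 12 h thus came from the largest differences. The called miRNA at 1 h was miR-335. Its signal was at the floor in the LLM arrays of the 1, 6 and 12 h pools and 10.3 in the 24 h pool, against 13.6 after 1 h, 11.5 after 6 h and the floor at both later times. The rise was 0.47 (SE 0.0684, adjusted p 0.0469), measured against the floor, and the other probe of miR-335 stayed at the floor at 1 h. The call was lost on leaving out any of the LLM arrays of the 1, 6 or 12 h pools of either diet. Without the EtOH LLM array of the 12 h pool, which stood apart, the counts at 1, 6, 12 and 24 h were 0, 1, 9 and 7, of which 0, 1, 8 and 5 were among those named here.

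The largest paired differences at 1 h and at 6 h belonged to miR-196a, miR-196b and miR-196c, which are encoded in the Hox gene clusters, but none passed the test. MiR-196a had signals of 25.5, 27.7, 22.8 and 12.8 in the LLM arrays of the 1, 6, 12 and 24 h pools, and of 49.6, 63.8, 17.5 and 20.1 after PHx. The PHx arrays of 1 h and 6 h were above all 4 LLM arrays, and those of 12 h and 24 h lay among or below them. MiR-196b went from 14.6 to 31.7 in the 1 h pool and from 17.0 to 34.9 in the 6 h pool. MiR-196c went from 37.2 to 68.9 and from 40.9 to 89.5 in the same pools. Paired differences of the 3 ran from 0.89 to 1.12 at 1 h and from 1.04 to 1.20 at 6 h. Because the LLM arrays themselves ranged widely (SD 6.57 around a mean of 22.2 for miR-196a, n = 4), adjusted p lay between 0.606 and 0.875 at 1 h and between 0.148 and 0.338 at 6 h. The 1 h and 6 h pools, which share 1 animal and a slide, also had the higher LLM values. At 24 h the 3 were again above their own LLM array, by 0.17 to 0.99 with a median of 0.65, but the median of their changes against all 4 LLM arrays was -0.09, since the LLM array of the 24 h pool was low. At 12 h the paired median was -0.24.

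At 6 h the one call was miR-30c-1*, the passenger strand of miR-30c-1. It was not well above background on any LLM array and at the floor at 1 h and 24 h, with signals of 16.5 at 6 h and 17.9 at 12 h. It was at least 1.69-fold higher at 6 h (adjusted p 0.000592) and at least 1.85-fold higher at 12 h (adjusted p 0.000116). With all LLM arrays at the floor no spread was measured before PHx, so both p-values may be too small. All 3 other probes of it were at the floor at 6 h.

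Below the threshold at 6 h stood miR-223 (0.79, adjusted p 0.0611), a miRNA of neutrophils and other myeloid cells, and miR-652 and miR-872. MiR-872 had signals of 14.2, 12.6, 11.6 and 10.1 before PHx and of 16.9, 21.6, 21.7 and 14.3 after it. All PHx arrays of miR-872 were above all LLM arrays, with the 6 h and 12 h arrays highest. MiR-652 went from 39.7, 37.0, 38.3 and 32.5 to 42.7, 54.3, 48.3 and 37.6, so that its 24 h array lay within the LLM range. Their changes at 6 h were 0.85 for miR-872 and 0.56 for miR-652, both with an adjusted p of 0.148.

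**Figure D2:**
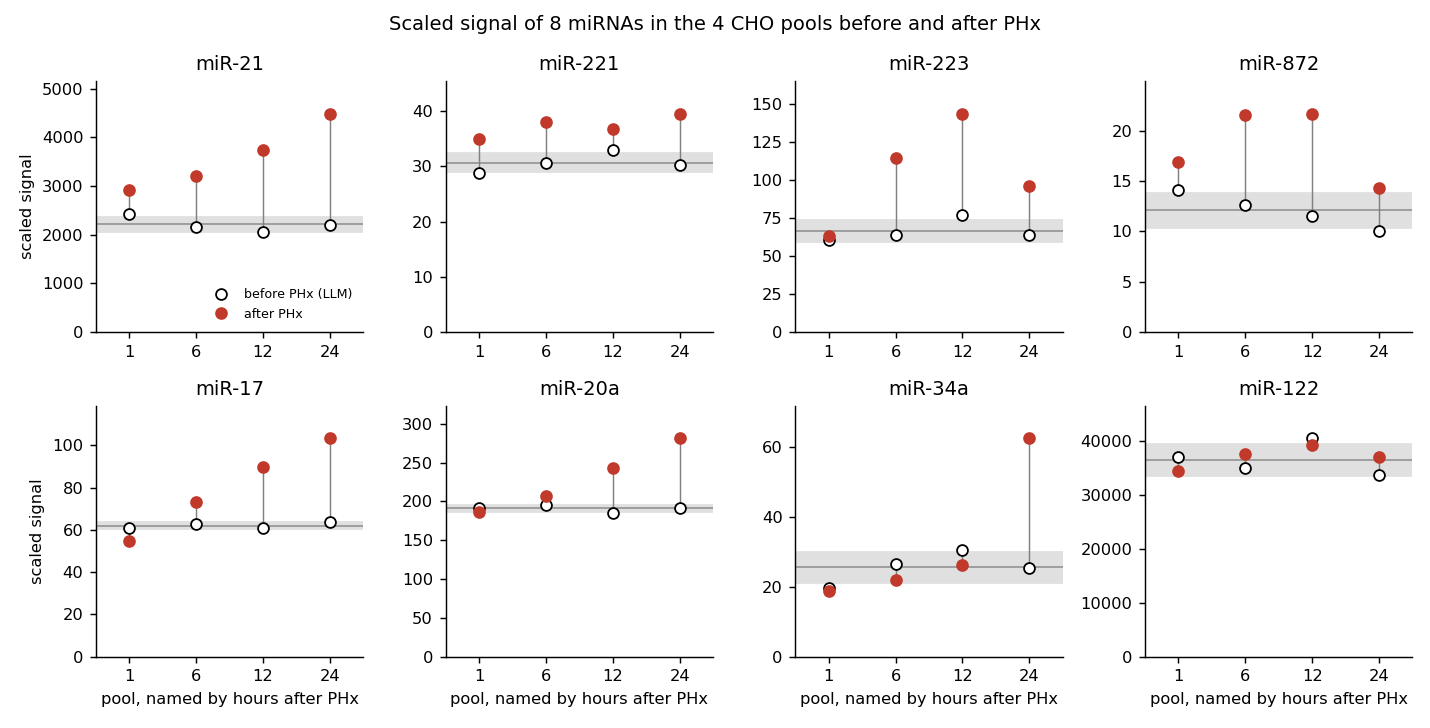
Scaled signal (y axis, linear, from 0) of 8 miRNAs in the CHO pools named by the hours after PHx (x axis). Open circles are LLM arrays and red circles the PHx arrays of the same animals, the grey line and band are the mean and SD of the 4 LLM arrays; miR-21 climbed from 2909 at 1 h to 4484 at 24 h, miR-223 was highest at 12 h, and miR-122 stayed within 33552 to 40386.

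At 12 h, 9 miRNAs rose, and they were miRNAs with moderate rises and dim miRNAs whose highest signal among the CHO arrays was on the 12 h PHx array. The moderate rises were those of miR-17, miR-20a, miR-223 and miR-345-5p, between 1.27-fold and 2.17-fold. MiR-223 had LLM signals of 60.6, 63.5, 77.3 and 63.9 and PHx signals of 63.1, 114.3, 143.5 and 96.3. Its arrays from 6 h on were above all LLM arrays, and its rise at 12 h was 1.12 (SE 0.137, adjusted p 0.00335). In the paired comparison miR-223 was higher by 0.89 at 12 h and in all 4 pairs. MiR-20a rose by 0.35 (SE 0.0621, adjusted p 0.0209) and miR-17 by 0.54 (adjusted p 0.0318). MiR-345-5p rose by 0.55 (adjusted p 0.0482).

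The remaining calls at 12 h were miR-125a-3p, miR-188, miR-466b, miR-672 and miR-30c-1*, all dim before PHx. MiR-125a-3p, the arm of the miR-125a hairpin opposite the abundant guide, had signals of 10.49, 10.91, 14.01 and 10.61 before PHx and of 13.4, 17.5, 492.5 and 13.8 after it. The 12 h array thus stood 43.1-fold above the LLM mean (log2 change 5.43, SE 0.402, adjusted p 0.000263), while the arrays of 1 h and 24 h did not exceed the highest LLM array. MiR-188 went from 18.7, 27.4, 21.0 and 15.4 to 21.6, 29.0, 166.5 and 20.4, an 8.26-fold rise at 12 h (adjusted p 0.00656). MiR-466b went from 19.8, 18.8, 18.3 and 13.9 to 25.7, 30.8, 87.5 and 26.4, and was 4.99-fold higher at 12 h (adjusted p 0.00108). Unlike miR-188, miR-466b was above all LLM arrays at every time after PHx. MiR-672 was not well above background on any LLM array and reached 34.0 at 12 h, at least 3.49-fold higher (adjusted p 2.64e-06, again with no spread measured before PHx).

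Of the 216 miRNAs not tested, 6 were detected among the CHO arrays on the 12 h PHx array alone: miR-125b-3p, miR-874, miR-134, miR-296*, miR-539 and miR-291a-5p. MiR-125b-3p, the counterpart of miR-125a-3p on the miR-125b hairpin, was at 212.2 and miR-874 at 30.0, and the other 4 lay between 11.2 and 14.9. They were chosen here after their values were seen. The spots of the 12 h PHx array varied as on the others (8.41%), and for 8 of the 9 miRNAs called at 12 h all other probes moved the same way. Because these miRNAs are high on the array that is least like the others, and no second pool was measured at 12 h, the array and the time cannot be told apart for them.

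Of the 9 calls at 12 h, those of miR-125a-3p, miR-188, miR-466b, miR-672, miR-223 and miR-30c-1* held on leaving out each other array in turn. For miR-672 (1.82) and miR-30c-1* (0.90) the change could not move, since all CHO LLM arrays were at the floor. Holding thus lends neither of them weight. The 12 h PHx array, on which all 9 calls rest, cannot be left out of this comparison. The call of miR-20a was lost without the LLM array of the 1 h pool (limma adjusted p 0.0779). Those of miR-17 and miR-345-5p were lost without any 1 CHO LLM array. They were also lost without the EtOH LLM array of the 6 h pool (miR-17) or of the 12 h pool (miR-345-5p). Under other processing and fits, miR-17 and miR-345-5p each kept the call in 1 of 12 settings and miR-20a in 3 of 12. The remaining calls were kept in between 7 of 11 (miR-30c-1*) and 10 of 11 (miR-125a-3p).

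**Figure D3:**
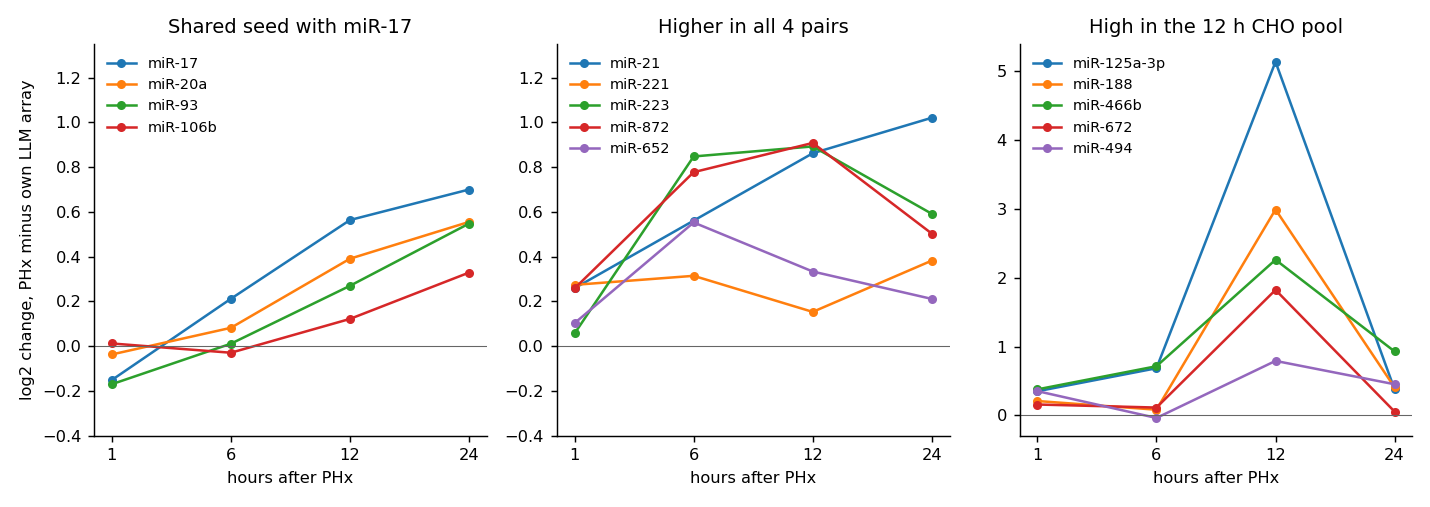
Log2 difference between the PHx array and the LLM array of the same pool (y axis, wider on the right panel) against hours after PHx (x axis, evenly spaced) for 3 sets of miRNAs; each point is 1 pair of arrays. On the left miR-17 reached 0.70 at 24 h, in the middle miR-21 reached 1.02 and miR-223 peaked at 0.89 at 12 h, and on the right miR-125a-3p reached 5.14 at 12 h and was back at 0.38 by 24 h.

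At 24 h, when rat hepatocytes are known to replicate their DNA, 7 miRNAs rose: miR-21, miR-17, miR-345-5p, miR-93, miR-20a, miR-425 and miR-361. MiR-21 had the largest rise. Its signals were 2431, 2167, 2053 and 2210.2 before PHx and 2909, 3198, 3730.4 and 4484 after it, so that each later array was higher than the one before and none overlapped the LLM arrays. The change at 24 h was 2.03-fold (log2 1.02, SE 0.182, adjusted p 0.0426). Its paired differences were 0.26, 0.56, 0.86 and 1.02.

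In the miR-17 family the paired differences lay between -0.17 and 0.01 at 1 h, where that of miR-21 was 0.26. MiR-17 had signals of 60.7, 63.0, 60.8 and 63.5 before PHx and of 54.7, 73.0, 89.8 and 103.2 after it. The 1 h array was thus below the LLM range and the other 3 above it. MiR-20a went from 191.5, 195.7, 185.5 and 191.3 to 186.7, 207.2, 243.2 and 281.1. MiR-93, of the miR-106b-25 cluster in the Mcm7 gene, went from 63.0, 60.0, 66.0 and 66.2 to 56.0, 60.5, 79.6 and 96.8. At 24 h the rise was 1.67-fold for miR-17 (adjusted p 0.0218), 1.47-fold for miR-20a (SE 0.0621 on the log2 scale, adjusted p 0.00974) and 1.52-fold for miR-93 (adjusted p 0.0426). MiR-106b was at 52.5 against 37.0, 37.1, 35.2 and 41.8 before PHx, and missed the threshold (adjusted p 0.0503).

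The smaller rises at 24 h were those of miR-345-5p, miR-425 and miR-361. MiR-345-5p went from 35.9, 36.1, 38.6 and 36.1 to 33.2, 43.1, 53.8 and 56.4, with a course like that of miR-17. MiR-425 was at 23.0, 27.8, 29.7 and 40.4 after PHx against 28.5, 26.4, 29.1 and 29.1 before it, so that its 24 h array stood above the LLM range, and its 1 h array below it, by more than the SD of the LLM arrays (1.26, n = 4). MiR-361 was at 32.0, 34.0, 36.0 and 42.3 after PHx against 32.6, 33.1, 31.6 and 34.5. Their changes at 24 h were 0.62, 0.51 and 0.36, with adjusted p of 0.0426, 0.0426 and 0.0443.

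MiR-34a, a target of p53 that represses cell cycle genes, had the highest paired difference above 0 at 24 h (1.30) without passing the test (change 1.31, SE 0.448, adjusted p 0.221). It was at 19.8, 26.4, 30.5 and 25.4 before PHx and at 18.8, 21.9, 26.3 and 62.4 after it. Only the 24 h array was above the LLM range. MiR-505 was not well above background at 24 h after 14.84, 13.97, 15.18 and 14.09 before PHx, at least 1.33-fold lower (adjusted p 0.171).

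The 24 h count rested on single arrays and on the scaling. Without the LLM array of the 1 h, 6 h, 12 h or 24 h pool it was 0, 1, 2 and 3 instead of 7. It was 0 with the 75th percentile taken over all probes, without scaling and with the total signal per miRNA. Within the slide of the 12 h and 24 h pools it was also 0. There only the CHO LLM arrays of those pools gave a spread, so that 0 says little. The miR-17 family's median change at 24 h was 0.56 there and 0.57 with the total signal, against 0.58 in the main fit. It was 0.53 with the percentile over all probes and 0.23 without scaling. Of the single calls, that of miR-20a was lost only without the LLM array of the 1 h pool and kept in 7 of 12 other settings. That of miR-21 was lost without any 1 CHO LLM array and kept in 3 of 12. The others were kept in between 1 of 12 (miR-361) and 4 of 12 (miR-17 and miR-345-5p). The 24 h PHx array was also the dimmest of the CHO arrays (343.9) and detected the fewest miRNAs (116), and the part of this in the result was not tested.

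Whether any miRNA was shifted over the whole course was asked with the paired fit, in which each PHx array is set against its own LLM array. With limma 0 of 134 miRNAs passed (0%), with 20 at an unadjusted p under 0.05, of which 17 were higher and 3 lower, and a lowest adjusted p of 0.241. Without the pairing, in the fit used for each time, 9 passed, all higher: miR-125a-3p, miR-17, miR-20a, miR-21, miR-223, miR-30c-1*, miR-466b, miR-672 and miR-872. That fit holds both diets and takes its spread from the LLM arrays alone. In the paired fit of the CHO arrays, a change that varies with time adds to the spread. For miR-21, which climbed with time, the SE was 0.144 in the paired fit and 0.115 in the other. The counts thus do not isolate the pairing, and 0 does not show that no miRNA was shifted. Across the pairs, 24 miRNAs were higher in all 4 pairs and 6 were lower in all 4 pairs. For 7 miRNAs (5.22%) all 4 PHx arrays were above all 4 LLM arrays: miR-21, miR-221, miR-345-3p, miR-466b, miR-672, miR-7a and miR-872. For 1 miRNA (0.746%), miR-27b, all 4 were below.

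MiR-221, which represses the cell cycle inhibitor p27, was slightly higher in every pool after PHx without passing the test. It had signals of 28.8, 30.5, 32.9 and 30.3 before PHx and of 34.9, 38.0, 36.6 and 39.5 after it. The paired differences were 0.27, 0.31, 0.15 and 0.38, with a mean of 0.28 (SE 0.0517, adjusted p 0.241). MiR-21 had a mean of 0.68 (SE 0.144) and miR-872 of 0.61 (SE 0.125), both with the same adjusted p of 0.241. MiR-27b was at 577.4, 543.0, 615.4 and 557.7 before PHx and at 528.9, 513.6, 513.6 and 516.4 after it. MiR-31 went from 307.9, 325.7, 329.2 and 288.4 to 261.6, 304.4, 267.5 and 257.5, lower in each pair but with an overlap between the groups. The mean difference was -0.14 for miR-27b (adjusted p 0.242) and -0.20 for miR-31 (adjusted p 0.241).

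Whether a course was flat or not was tested over all times at once with limma's moderated F test, and whether late times differed from early ones by setting the changes of 12 h and 24 h against those of 1 h and 6 h, with slide as a term. The F test called 9 miRNAs (6.72%), each with its largest change upward: miR-672, miR-30c-1*, miR-125a-3p, miR-466b, miR-20a, miR-223, miR-17, miR-335 and miR-188. MiR-20a and miR-17 were those of the 9 that peaked at 24 h (adjusted p 0.0113 and 0.0196). Late minus early called 1 miRNA (0.746%), miR-672 (0.80, adjusted p 0.00567), which had a difference of -0.08 without the 12 h PHx array. MiR-20a (0.44, adjusted p 0.0748), miR-17 (0.51, adjusted p 0.101) and miR-93 (0.58, adjusted p 0.133) were higher late without passing. In the other direction stood miR-196b (-1.57, adjusted p 0.192).

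Without the 12 h PHx array 4 miRNAs passed the F test, and without the LLM array of the 1 h or 6 h pool 5 did. Without the slide term late minus early called 9 miRNAs, 7 higher and 2 lower.

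Among groups of miRNAs, the miR-17-92 cluster and its paralogues held 2 of the 9 calls at 12 h and 3 of the 7 at 24 h. These were 2 and 3 of its 8 tested members, beside 6.72% and 5.22% of all 134. None was called at 1 h or 6 h, and at an unadjusted p under 0.05 there were 0, 0, 3 and 5 members at the 4 times, all higher. MiR-17 and miR-20a rose at 12 h, and miR-17, miR-20a and miR-93 rose at 24 h. Paired differences were above 0 for all 8 members at both later times, with medians of 0.22 at 12 h and 0.41 at 24 h, against medians of -0.06 and 0.06 over all 134 miRNAs. The other members were miR-19a, miR-19b, miR-92a, miR-106b and miR-25. MiR-19a, at 29.8 after 24 h against 15.7, 16.4, 14.4 and 21.8 before PHx, had a change of 0.82 (adjusted p 0.168). MiR-92a, from the same polycistron as miR-17, was at 251.4 after 24 h, within its LLM range of 208.0 to 259.7.

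Seed families were formed from the 93 tested miRNAs matched to a sequence, so tested members without a match are left out. Of the 6 families with at least 3 such members, that of miR-17, miR-20a, miR-93 and miR-106b had paired medians of -0.09, 0.05, 0.33 and 0.55 at the 4 times. At 24 h the fitted change of all 4 was above 0 under every scaling tried. With normexp background correction, though, the family's median of 1.75 equalled that of all tested miRNAs (1.75). The sign under that setting therefore says nothing about the family. At 12 h the family's median was 0.33 in the main scaling but -0.01 when the percentile for scaling was taken from all probes and 0.05 with quantile normalization. The percentile from all probes shifted the median of all miRNAs at 12 h by -0.30, and quantile normalization by -0.21. The let-7 family, which restrains growth genes in differentiated cells, had 8 tested members with paired medians of -0.09, 0.12, -0.04 and 0.05. The miR-29, miR-15/16 and miR-30 families also stayed within 0.15 of 0 in their paired medians at each time. The miR-30 family is given here from 3 of its 5 tested members. None of these was called in limma's fits.

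**Figure D4:**
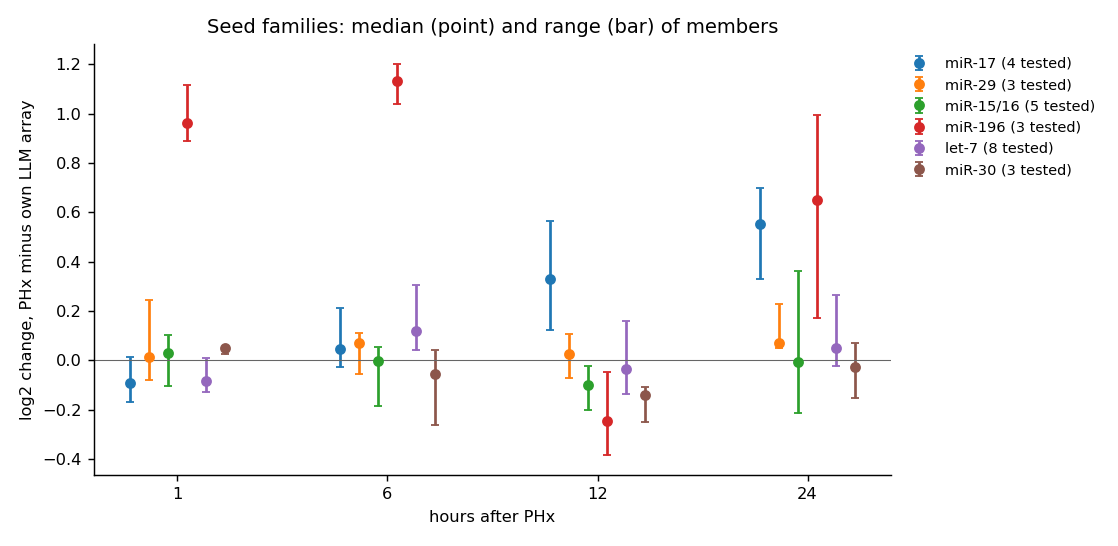
Median (point) and range (bar) of the paired log2 difference of the members with a matched sequence of 6 seed families (y axis). The x axis gives 1, 6, 12 and 24 h after PHx, evenly spaced, with families offset sideways. The miR-17 family climbed to a median of 0.55 at 24 h. The median of the miR-196 family was highest at 1 h (0.96) and 6 h (1.13), and lay at -0.24 at 12 h and at 0.65 at 24 h. The medians of the other 4 families stayed within 0.15 of 0, with single members from -0.26 to 0.36.

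Markers of other cell types were read beside these changes. In bulk liver, fewer cells of a type and less RNA per cell cannot be told apart. Of 4 tested leukocyte miRNAs only miR-223 was called, at 12 h, beside 9 of all 134 (6.72%). The lymphoid miR-150 went from 66.4, 65.6, 78.8 and 60.2 to 64.1, 73.0, 63.9 and 48.1, and miR-142-3p, a miRNA of hematopoietic cells, from 27.1, 32.8, 31.3 and 35.8 to 30.3, 27.7, 24.6 and 26.5. MiR-146a, which is induced by NF-kB, went from 170.2, 187.0, 177.1 and 160.2 to 176.8, 226.2, 167.1 and 143.7. It lay above its LLM range at 6 h (change 0.38, adjusted p 0.204) and below it at 24 h (change -0.27, adjusted p 0.231). At 6 h miR-223 and miR-146a, 2 of the 4, were higher at an unadjusted p under 0.05, beside 14 of all 134. MiR-150 lay below its LLM range at 24 h and within it at the other times. MiR-142-3p lay below its LLM range at 12 h and 24 h, where miR-223 lay above. Summed with the untested miR-142-5p, the 5 leukocyte miRNAs on the array had a signal of 329.8 to 374.1 before PHx. After it the sum was 343.9, 450.9, 408.7 and 324.2.

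The erythroid miR-451 was at 772.1, 1013, 611.1 and 1212 before PHx and at 707.5, 518.6, 839.6 and 351.8 after it. It was lower in the 6 h pool by 0.97 and in the 24 h pool by 1.78 in the paired difference, and higher in the 12 h pool by 0.46. Its LLM arrays ranged widely (SD 264.5, n = 4), and no change passed (adjusted p 0.149 at 24 h). MiR-144, of the same transcript, was at 17.6 before PHx and at the floor after it in the 24 h pool. The lowest erythroid signal thus fell on the array of the 24 h rises. Its part in them was not tested.

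Over the 13 lists with a tested member and no call (48 miRNAs), among them those of hepatocytes, endothelium, stellate cells and biliary epithelium, 0, 2, 1 and 8 miRNAs passed an unadjusted p under 0.05 at 1, 6, 12 and 24 h, beside 6, 17, 18 and 28 of all 134. Of the 8 at 24 h, 4 were higher and 4 lower. The median paired difference of the 48 lay between -0.10 and 0.02, with single members from -1.78 to 1.30 at 24 h. These lists were taken because none of their members was called. A lower count than over all 134 was thus partly set in advance and does not show that these groups were steady. The biliary and epithelial miR-200a was at 25.9, 29.0, 24.8 and 24.2 before PHx and at 29.5, 21.2, 20.9 and 20.8 after it, with the arrays from 6 h on below all LLM arrays and the 1 h array above them. Of the regeneration and cell cycle list, 7 members were tested. MiR-21 was the one called, at 24 h, beside 7 of all 134 miRNAs (5.22%).

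How far the course was particular to the control diet was tested as the difference between the CHO change and the EtOH change at the same time, in 1 fit over all 15 arrays. Averaged over the times, 2 miRNAs differed (1.49%), miR-672 by 0.44 and miR-30c-1* by 0.31, both higher in CHO. With each PHx array paired with its own LLM array, 0 differed in limma's fit. The EtOH pool of 24 h has no LLM array, so that fit set all 4 CHO times against 1, 6 and 12 h in EtOH. Diet and time are thus mixed in it. At 12 h 5 differed (3.73%), and all were among the miRNAs high on the CHO 12 h array. MiR-125a-3p changed by 5.43 in CHO and by -0.32 in EtOH (difference 5.75, SE 0.578, adjusted p 0.00174). MiR-188 changed by 3.05 and -0.36, and miR-466b by 2.32 and 0.60. MiR-672 and miR-30c-1* had an EtOH change of 0 at 12 h, with the EtOH LLM arrays and the EtOH 12 h PHx array at the floor. The count at 12 h was 3 without the LLM array of the 1 h EtOH pool, the 6 h EtOH pool, the 6 h CHO pool or the 12 h CHO pool. Without the EtOH LLM array of the 12 h pool it was 4, with the call of miR-466b lost, and in the mean that of miR-30c-1* was lost. With limma 0 miRNAs differed at 1 h, at 6 h and at 24 h (0% each), where 2, 2 and 4 had an unadjusted p under 0.05.

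For miR-21, miR-34a and the miR-17 family no difference between diets passed. At 24 h the change of miR-21 was 1.02 in CHO and 1.21 in EtOH (difference -0.19, SE 0.261, adjusted p 0.988), and that of miR-17 was 0.74 and 0.62 (difference 0.11, SE 0.152). MiR-20a had 0.35 in CHO and 0.64 in EtOH at 12 h (difference -0.29, SE 0.0887, adjusted p 0.202). MiR-34a changed by 1.31 and 1.097 at 24 h, with an SE of 0.644 for the difference. The averaged difference of miR-672 was -0.02 without the 12 h PHx array of either diet, and that of miR-30c-1* was lost without most single arrays (4 of 15 kept it).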

How the data were processed

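MiRNA levels in rat liver were measured on 15 Agilent 1-colour arrays, and the members and lists described here were chosen with earlier results of these data known. The deposited scanner files hold spot intensity with the local background subtracted by Feature Extraction, whose version is 10.5.1.1 in the file headers but 10.7.3.1 in the submitters' processing notes. The authors also deposited a table of log2 values, of unknown scaling and centring (column medians 0.106 to 1.097), which served as an alternative. Flagged spots (2.48% on the CHO arrays) and control spots were left out. Signals were averaged per probe, scaled to the 75th percentile of the 185 probes that every array detected, floored at 9.61 and log2 transformed. The brightest probe stood for its miRNA, and 134 miRNAs detected on at least 3 arrays were tested while 216 were not.

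Changes at each time came from limma 3.58.1 in R 4.3.3 on 10 cells of diet and time (15 arrays, 5 residual degrees of freedom), and the mean change from a paired fit of the 8 CHO arrays (3 residual degrees of freedom). Pairs come from shared animals, and deviations of the 2 arrays of a pool correlated at 0.23 to 0.49. The number of arrays limits precision (median SE 0.16 for a change at a time). The fits were tested on simulated data. MiRNAs named were up to 8 called rises and 8 falls per comparison, those with the lowest p up to 10, a fixed panel and list members, and others were chosen after their values were seen.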

Additional observations from a re-analysis of the deposited data

Results flagged for a closer look

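Among the 4 CHO arrays before PHx, 6 of 40 miRNAs examined had 1 pool far from the other 3, where chance sets about 1 group in 20 apart. The 12 h pool was highest for miR-125a-3p (14.01 against 10.49 to 10.91), miR-345-5p (38.6 against 35.9 to 36.1) and miR-214 (15.03 against 12.9 to 13.2). The 24 h pool was highest for miR-203 (36.2 against 27.7 to 28.7) and miR-335 (10.3 with the others at the floor). With the other 3 at the floor any value above it is set apart, so the rate of 1 in 20 does not cover miR-335. The 1 h pool was lowest for miR-322 (67.8 against 70.8 to 71.4).

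The change after PHx differed between the diets for miR-672 (0.44) and miR-30c-1* (0.31) in the mean over times. At 12 h the difference was 5.75 for miR-125a-3p, 3.41 for miR-188, 1.82 for miR-672, 1.72 for miR-466b and 0.90 for miR-30c-1*, all higher in CHO and all from 1 pool per diet.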

How the results depend on the processing

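Called counts at 1, 6, 12 and 24 h were 1, 1, 9 and 7. They were 0, 3, 19 and 5 with quantile normalization, 0, 1, 5 and 0 with the percentile for scaling taken from all probes, 0, 0, 5 and 0 without scaling, and 0, 2, 6 and 0 with the total signal per miRNA. They were 2, 3, 15 and 2 without the filter on dim miRNAs, 0, 1, 2 and 7 for miRNAs detected on all arrays, and 0, 2, 8 and 1 with slide as a block. Within slides they were 0 at 1 h, 3 at 6 h, 0 at 12 h and 0 at 24 h. In the slide of the 12 h and 24 h pools only the CHO LLM arrays of those pools gave a spread. The authors' deposited value table gave 17 at 12 h, and the fit of the 8 CHO arrays alone gave 0 at 1 h. Normexp with a local background compressed the CHO 24 h PHx array and gave 0, 0, 1 and 117 calls, and there miR-21 (-0.14), miR-122 (-1.02) and miR-505 (2.48) had the opposite sign at 24 h. Normexp with 1 background value per array, chosen after seeing the data, gave 0, 0, 6 and 2.

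The F test over times called 9, against 16 with quantile normalization, 4 with the percentile from all probes, 4 without scaling, 104 with normexp, 3 with 1 background value, 4 for miRNAs detected on all arrays and 15 without the filter. Late minus early called 1, against 2 with quantile normalization, 2 with the percentile from all probes, 0 with normexp, 0 for miRNAs detected on all arrays, 12 without the filter, 0 in the 8 CHO arrays and 9 without the slide term. Without scaling, in the authors' table, with the total signal and with 1 background value it called 1 each, which was not miR-672, whose call was kept in 4 of 11 other settings. The diet difference in the mean called 2, against 12 without the filter, 1 with the total signal, 1 with 1 background value, and 0 with the percentile from all probes, without scaling, in the authors' table (miR-30c-1* -0.24), with normexp and for miRNAs detected on all arrays. At 12 h the diet difference called 5, against 9 with quantile normalization, 0 with normexp, 3 with 1 background value, 1 for miRNAs detected on all arrays and 13 without the filter. The diet differences at 1, 6 and 24 h called 0, but 1, 3 and 1 without the filter, 1 at 6 h with quantile normalization and 113 at 24 h with normexp. These alternatives for single times were added after seeing the data.

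The replicate block pairs each PHx array with its own LLM array. With it, late minus early called 0 and the diet difference in the mean called 0. For the diet difference the EtOH 24 h PHx array was left out, since its pool has no LLM array. The mean change called 0 with the block and 9 with no replicate block. The latter fit also held the EtOH arrays and took its spread from the LLM arrays alone, so its count does not isolate the pairing. At a single time the paired difference has no test. Leaving out 1 array gave 0 to 1 calls at 1 h, 1 to 2 at 6 h, 6 to 10 at 12 h, 0 to 7 at 24 h, 0 to 1 for the mean change, 4 to 13 for the F test, 0 to 6 for late minus early, 0 to 3 for the diet difference in the mean and 3 to 5 for that at 12 h. Without the 12 h PHx array miR-672 had -0.081 for late minus early (up to 1.69 without others), and without that of either diet -0.024 for the diet difference in the mean (up to 0.68). Other causes of these shifts were not tested.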
